A study of Mus musculus with 6 samples.

Results

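NF-kappaB is a family of transcription factors built from pairs of Rel-family proteins, and the 10 genes described here are its 5 subunit genes (Nfkb1, Nfkb2, Rel, Rela and Relb) and 5 genes that feed back on it (Nfkbia, Nfkbie, Nfkbiz, Bcl3 and Tnfaip3). They were picked out by gene symbol, as the 10 of 14765 gene annotations in the deposited data that carry these names. The choice was made with earlier results of these data known. The data come from Mvt1, a mouse mammary carcinoma cell line of the FVB/N strain, grown in DMEM with serum and antibiotics. The cells were stained for CD24, an anchored cell surface protein, and sorted by flow cytometry into a CD24- group, without CD24 on the surface, and a CD24+ group. Messenger RNA was sequenced from 3 plates of adherent cells of each group, so that both groups share the line, the strain and the medium and carry no added agent. No repeated sort is described, and p-values and SDs below therefore measure the spread between plates. Differences tied to CD24 and other differences between the 2 sorted groups cannot be told apart.

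In resting cells NF-kappaB pairs are held in the cytoplasm by inhibitor proteins, the IkappaBs, of which Nfkbia and Nfkbie encode the alpha and epsilon forms. In the canonical route a kinase complex marks the IkappaBs for destruction and pairs with Rela or Rel enter the nucleus, while in the non-canonical route the kinase Map3k14 leads to processing of the Nfkb2 precursor and release of its pairs with Relb. The freed factors switch on several of their own inhibitors and subunits, which is why these genes are called feedback genes. In mammary epithelium the pathway is known for its part in ductal growth, in the return of the gland after lactation and in inflammation around tumours.

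The factors bind a 10-base element named the kappaB consensus, and promoter sequences are shown for the genes of this set that differed between the groups and whose window holds it. RefSeq promoter windows (GRCm38.p6) were found for 7 of the 10 genes by symbol. The 250 bases before the start were searched on both strands, and 5 of the 7 genes held at least 1 match, beside 7.25% of all 32851 windows of that length. Rel, which is not among the genes that differed, also held matches, GGGAAATCCC and GGAAATCCCC, 92 and 91 bases before the start. Rela and Bcl3 had no match in this window. No window was found for Nfkb1, Relb and Nfkbiz, so these genes were not searched. Several windows are listed for Nfkb2 and Tnfaip3, and the window shown is the 1 with most matches, which raises their chance of a match. In the lines below capitals mark the matches, 5′ to 3′ on the strand of the gene.
Nfkbie, chr17:45555450-45555699, plus strand: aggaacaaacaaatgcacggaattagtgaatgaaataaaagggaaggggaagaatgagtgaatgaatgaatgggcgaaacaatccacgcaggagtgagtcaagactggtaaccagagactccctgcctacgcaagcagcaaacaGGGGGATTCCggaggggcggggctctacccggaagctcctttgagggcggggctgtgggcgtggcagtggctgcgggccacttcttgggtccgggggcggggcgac
Nfkb2, chr19:46304487-46304736, plus strand: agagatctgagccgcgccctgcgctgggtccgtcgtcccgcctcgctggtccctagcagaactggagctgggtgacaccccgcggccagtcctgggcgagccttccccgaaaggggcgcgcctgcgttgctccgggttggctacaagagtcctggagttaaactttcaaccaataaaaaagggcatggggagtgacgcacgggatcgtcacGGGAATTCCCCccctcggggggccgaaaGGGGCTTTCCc
Tnfaip3, chr10:19015411-19015660, minus strand: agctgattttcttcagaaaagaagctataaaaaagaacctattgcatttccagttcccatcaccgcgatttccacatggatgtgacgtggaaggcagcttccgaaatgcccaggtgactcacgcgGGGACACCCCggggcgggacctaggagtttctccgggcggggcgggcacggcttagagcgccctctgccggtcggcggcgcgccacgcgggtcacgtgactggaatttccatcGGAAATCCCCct
Nfkbia, chr12:55492648-55492897, minus strand: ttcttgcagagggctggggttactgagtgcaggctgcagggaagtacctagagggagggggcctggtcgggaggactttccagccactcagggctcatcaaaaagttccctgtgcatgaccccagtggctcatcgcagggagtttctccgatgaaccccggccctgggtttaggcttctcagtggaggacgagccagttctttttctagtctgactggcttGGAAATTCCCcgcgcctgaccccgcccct
The match of Nfkbie begins 106 bases before the start, that of Nfkbia 29 bases before it, and those of Tnfaip3 125 and 12 bases before it. In Nfkb2 the matches GGGAATTCCC and GGAATTCCCC, 39 and 38 bases before the start, overlap, and GGGGCTTTCC lies 11 bases before it. Such a match describes the letters of the window and is not a measured binding site.

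The deposited data are counts of distinct 47-nt read sequences, each with a position in the mouse build mm9 and an annotation. The most-counted coding read of Nfkbie and of Nfkbia, a member that rose and the member that fell, show what was counted, in lower case as sequenced.
Nfkbie, chr17:45693143-45693189, read from the strand opposite the gene: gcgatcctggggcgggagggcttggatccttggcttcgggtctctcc
Nfkbia, chr12:56592234-56592280, read from the strand opposite the gene: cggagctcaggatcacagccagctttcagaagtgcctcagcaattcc
The Nfkbie sequence was counted 0, 0 and 0 times in CD24- replicates 1, 2 and 3 and 3, 3 and 4 times in CD24+ replicates 1, 2 and 3. That of Nfkbia was counted 6, 7 and 2 times in CD24- cells and 0, 6 and 8 times in CD24+ cells, before any scaling for depth. A gene's count is the sum of such sequences, of which Nfkbie had 917 and Nfkbia 1024.

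The libraries held between 9046025 mapped reads (CD24+ replicate 1) and 25692147 (CD24+ replicate 3), of which 71.8% to 74.3% were annotated to a gene. Values are given as CPM, the reads of a gene in every 1000000 gene reads of a library after TMM scaling, and the scaling factors lay between 0.979 and 1.01. Cd24a, the gene of the sorted marker, stood at 10.2 ± 2.79 CPM in CD24- libraries and at 77.2 ± 7.31 CPM in those of CD24+ cells (SD, n = 3 each), and its log2 fold change was 2.91 (SE 0.17, edgeR adjusted p = 5.39e-07). Of 12 mammary epithelial markers, Krt8 and Krt18 had most reads, while Krt5, Krt14, Epcam and Cdh1 had fewer than 10 reads over all libraries and Elf5 had none. Summed over a list, before TMM scaling, the epithelial markers reached 1940 to 2153 CPM in CD24- and 815 to 930 CPM in CD24+ libraries, while Cldn3 of the same list was called higher (log2 fold change 2.47, from 0.397 ± 0.35 to 2.47 ± 0.763 CPM). A list of 9 fibroblast markers summed to 12.6 to 31.1 and 181 to 273 CPM, led by Col3a1 and Pdgfrb, with no read of Lum or Thy1. A list of 12 leukocyte markers summed to 77.4 to 115 and 32.6 to 42.4 CPM, with 2 reads of Ptprc in all and none of Cd3e or Tyrobp. Its sum came mostly from Cd68 (64.6 ± 18.4 and 8.16 ± 1.25 CPM) and Cd14 (31.8 ± 1.17 and 27.9 ± 5.03 CPM), and Itgam had 3.84 ± 0.595 and 0.0175 ± 0.0303 CPM (SD, n = 3 each). A list of 6 endothelial markers summed to 2.70 to 4.70 and 0.785 to 2.0 CPM. These lists moved with the groups beside every result below, and their part in the results was not tested.

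Of the 10 genes, all of which had enough reads to be tested, Nfkbie, Relb, Bcl3, Tnfaip3 and Nfkb2 were higher in CD24+ cells, Nfkbia was lower, and Nfkb1, Rel, Rela and Nfkbiz were not called. A call is a Benjamini-Hochberg adjusted p below 0.05 in edgeR's quasi-likelihood test over 11125 genes, of which 23.8% were called higher, 22.3% lower and 46.1% in either direction. The 6 called members were also those whose 3 values in a group lay outside the 3 of the other, as they did for 57.3% of all genes tested (29.7% with CD24+ higher and 27.6% with CD24+ lower). The median log2 fold change of the 10 genes was 0.24, beside 0.02 over all genes tested. The set was chosen with earlier results of these data known, so these values cannot show that it changed more than other genes. Since RNA was measured in bulk, fewer cells expressing a gene and less of its RNA per cell cannot be told apart.

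**Figure D1:**
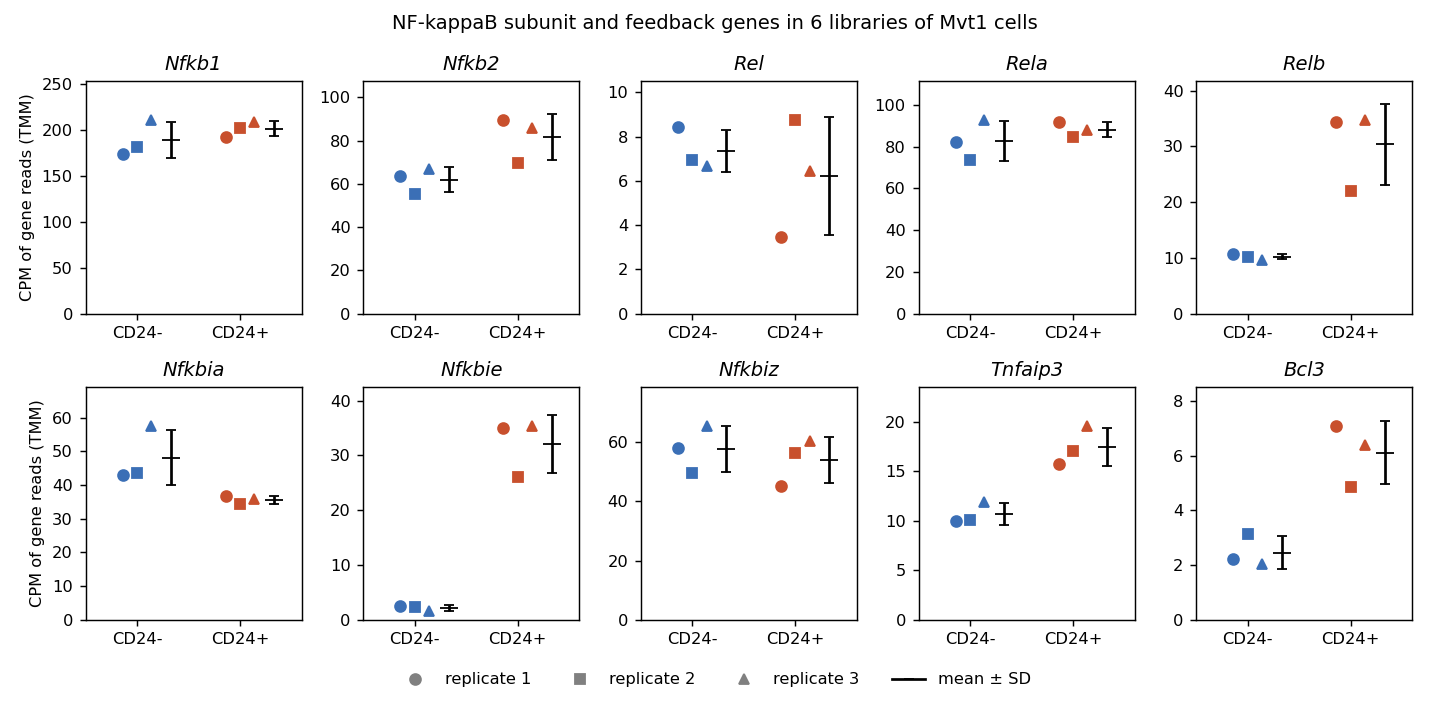
Each panel plots the CPM of a gene (over gene reads after TMM scaling, linear axis from 0) in the 3 CD24- and 3 CD24+ libraries, with the mean and SD of each group beside the points. The groups do not overlap for Nfkb2, Relb, Nfkbia, Nfkbie, Tnfaip3 and Bcl3, and the Nfkbie points lie at 1.58 to 2.53 CPM in CD24- cells and at 26.0 to 35.4 CPM in CD24+ cells.

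**Figure D2:**
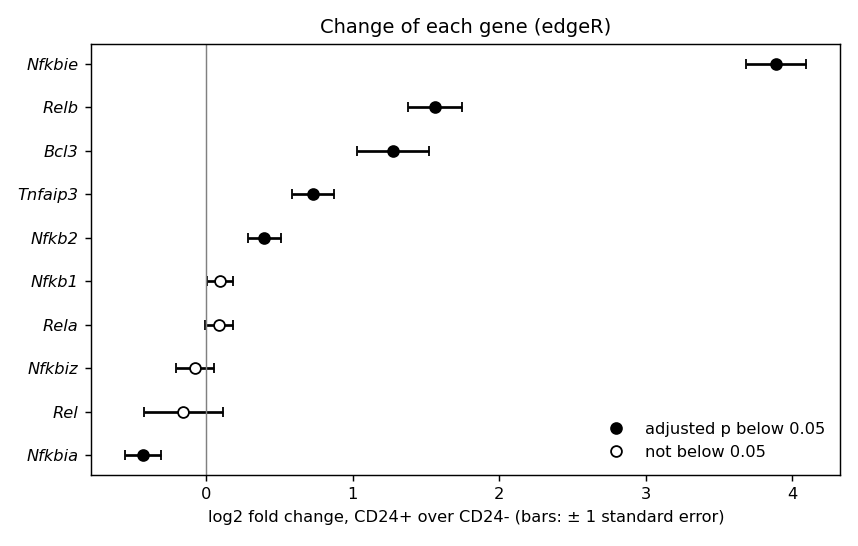
The plot gives the log2 fold change of each of the 10 genes (CD24+ over CD24-, edgeR, horizontal axis) with bars of 1 standard error, ordered by size. Filled points passed the adjusted p of 0.05: Nfkbie at 3.89, Relb at 1.56, Bcl3 at 1.27, Tnfaip3 at 0.73, Nfkb2 at 0.40 and Nfkbia at -0.43.

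Among the subunits, Relb, the partner of the processed Nfkb2 protein in the non-canonical route, differed most. Its reads lay at chr7:20191573-20214783 (mm9) and gave 10.6, 10.2 and 9.70 CPM in CD24- replicates 1, 2 and 3 and 34.3, 21.9 and 34.8 CPM in CD24+ replicates 1, 2 and 3. Every CD24+ library was above every CD24- library, and CD24+ replicate 2 was the lowest of its group. The mean was 2.98-fold higher in CD24+ cells (10.2 ± 0.469 against 30.3 ± 7.29 CPM, SD, n = 3 each), with a log2 fold change of 1.56 (SE 0.19, edgeR adjusted p = 7.49e-05). Of all genes tested, 697 had a larger rise. Transcripts of Relb also matched 1402 reads of 77 sequences that the files annotate to SINE repeats, 1395 of them to B1 elements, and 1378 were positioned outside the span of the Relb reads. They numbered 170, 192 and 191 in CD24- and 108, 338 and 403 in CD24+ libraries. Counted for Relb, as an alternative chosen after seeing the data, they brought the means to 29.4 ± 1.59 and 49.4 ± 7.61 CPM and the log2 fold change to 0.75 (edgeR adjusted p = 0.000753), so that the call held and the fold was 1.68. How many of these repeat reads came from Relb RNA cannot be told from the sequences.

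Nfkb2 encodes a precursor that is both an inhibitor and, once processed, a DNA-binding subunit. Its reads, at chr19:46380208-46386616, gave 63.5, 55.5 and 67.0 CPM in CD24- cells and 89.6, 69.7 and 86.0 CPM in CD24+ cells. The groups were separated only by the small gap between CD24- replicate 3 and CD24+ replicate 2. The log2 fold change was 0.40 (SE 0.11, edgeR adjusted p = 0.0168), and the call was lost without CD24- replicate 2 (adjusted p = 0.0736), CD24+ replicate 1 (0.0643) or CD24+ replicate 3 (0.0825). It was also lost when each distinct sequence was counted once per library (0.31, adjusted p = 0.0525). A limma fit to the median coverage over the longest transcript, on a scale where a regularizer of 10 lowers the sizes and with a minimum of 1 chosen after seeing the data, gave 0.17 and no call (adjusted p = 0.0506). Nfkb2 overlaps Psd in GENCODE M21, and the libraries carry no strand, so reads of the shared part cannot be assigned. With only reads that match the transcripts of a single gene, Nfkb2 had 0.39 and was still called (edgeR adjusted p = 0.0187).

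Nfkb1, whose precursor is the source of the DNA-binding partner of Rela, had 174, 181 and 211 CPM in CD24- cells and 192, 202 and 209 CPM in CD24+ cells. These values overlap, and the log2 fold change of 0.09 had a 95% interval of -0.08 to 0.27 (edgeR adjusted p = 0.418). Intervals of log2 fold changes are normal approximations from the SE, and the quasi-likelihood F test would give somewhat wider ones. Its reads lay at chr3:135247578-135354547, in part over the annotated gene Gm43430. Rela, the main activating subunit of the canonical route, had 82.2, 73.7 and 92.9 CPM in CD24- and 91.8, 84.6 and 87.9 CPM in CD24+ cells, at chr19:5637471-5648129. Its groups overlap too, with a log2 fold change of 0.09 and an interval of -0.10 to 0.27 (edgeR adjusted p = 0.490). For both genes a change of the size seen for Relb lies outside the interval.

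Rel, an activating subunit best known from lymphocytes, was the least covered subunit, with 512 reads in all at chr11:23641737-23670937. It had 8.42, 6.92 and 6.65 CPM in CD24- cells and 3.46, 8.76 and 6.45 CPM in CD24+ cells. CD24+ replicate 1, the shallowest library, held the lowest value, from 22 reads, and CD24+ replicate 2 the highest. The log2 fold change was -0.16 with an interval of -0.69 to 0.37 (edgeR adjusted p = 0.654). Of the reads matching its GENCODE transcripts, 433 were annotated to Rel, 625 had no annotation and 269 had another. None of those 269 was placed within the span of the reads annotated to Rel, and 196 of them were annotated to SINE repeats.

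Levels of different genes can be compared only per length, here as CPM per kb of the longest coding GENCODE transcript. Counted were reads that matched it and no other gene's transcripts, whatever their annotation. The length includes stretches where no read could count, at exon junctions and where another gene's transcripts share the sequence. In Nfkb2 no read was counted in parts 1, 2 and 20, each 5% of its length, in any library. The order of genes and the size of the shares are therefore approximate. Per length, Nfkb1 was the most abundant subunit transcript in both groups, at 40.7 ± 3.58 in CD24- and 44.8 ± 1.23 in CD24+ cells (SD, n = 3 each). Rela followed at 28.8 ± 3.27 and 31.3 ± 1.53, Nfkb2 at 15.2 ± 1.40 and 20.5 ± 2.75, Relb at 4.22 ± 0.358 and 12.8 ± 3.22, and Rel at 2.32 ± 0.208 and 2.18 ± 0.588. Of the summed level of the 5 subunits, Relb made up 5.19%, 4.85% and 3.94% in CD24- libraries and 12.8%, 8.83% and 12.4% in CD24+ libraries. Its mean share rose from 4.66% to 11.3%, while that of Rela went from 31.5% ± 1.25 to 28.1% ± 1.00, and neither pair of groups overlapped. An exact two-sided permutation test gave p = 0.1 for both, which is the smallest p that 3 against 3 libraries allow (0.167 adjusted over the 5 shares). The 2 results are not separate, since the 5 shares are parts of the same sum and a larger share of Relb leaves less for the others together. The mean level of Rela per length did not fall. The shares of Nfkb1 (44.6% and 40.3%) and Nfkb2 (16.7% and 18.3%) overlapped between the groups (exact permutation p = 0.2 each). That of Rel went from 2.55% to 1.96% (exact permutation p = 0.1), a difference of -0.585 percentage points. Without CD24+ replicate 1 the difference for Rel was -0.258, and with all matching reads counted its exact permutation p was 0.2. These levels and shares leave out most of the repeat reads of Relb. With every read annotated to a subunit or matching its transcripts counted, the share of Relb was 12.0%, 12.4% and 11.4% in CD24- and 17.6%, 15.1% and 18.4% in CD24+ libraries (exact permutation p = 0.1), again without overlap.

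**Figure D3:**
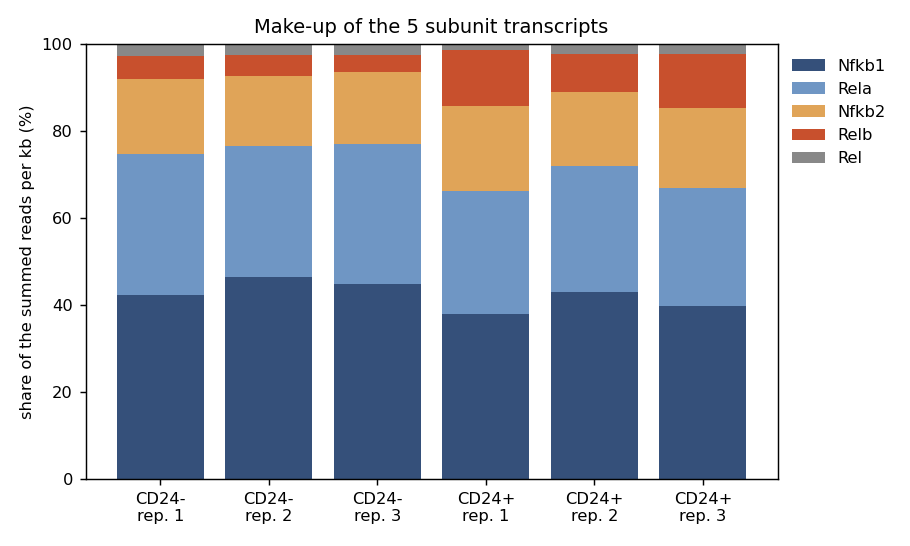
Stacked bars show, for each of the 6 libraries, the share (%) of each subunit gene in the summed reads per kb of Nfkb1, Rela, Nfkb2, Relb and Rel. The Relb segment covers 3.94% to 5.19% of a CD24- bar and 8.83% to 12.8% of a CD24+ bar, and Nfkb1 and Rela together make up most of each bar.

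Of the inhibitors, Nfkbie differed most of all 10 genes. Its reads lay at chr17:45692666-45700115 and numbered 24, 24 and 14 in CD24- cells and 222, 461 and 675 in CD24+ cells. This corresponds to 2.53, 2.28 and 1.58 CPM and to 34.9, 26.0 and 35.4 CPM, so that the lowest CD24+ library stood far above the highest CD24- library. The mean was 15.1-fold higher in CD24+ cells (2.13 ± 0.491 against 32.1 ± 5.27 CPM, SD, n = 3 each), with a log2 fold change of 3.89 (SE 0.20, edgeR adjusted p = 2.77e-07). Of all genes tested 92 had a larger rise, and 1.29% had a larger absolute log2 fold change.

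Nfkbia, which encodes the alpha form and is a classical rapid target of the pathway, went the other way. Its reads, at chr12:56590801-56593595, gave 43.1, 43.6 and 57.5 CPM in CD24- cells and 36.7, 34.4 and 35.7 CPM in CD24+ cells. All CD24+ libraries were below all CD24- libraries, and CD24- replicate 3 stood above the other two of its group. The mean was 1.35-fold lower in CD24+ cells, with a log2 fold change of -0.43 (SE 0.12, edgeR adjusted p = 0.0143). Without CD24- replicate 3 it was -0.29 (adjusted p = 0.0244). GENCODE transcripts of Nfkbia also matched 731 reads that carried no annotation in the files.

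The 2 inhibitor transcripts thus moved in opposite directions relative to each other within a library. There were 0.0587, 0.0522 and 0.0275 Nfkbie reads per Nfkbia read in CD24- libraries and 0.953, 0.757 and 0.990 in CD24+ libraries, given as values without a test. Set against Rela, the subunit that Nfkbia holds back, Nfkbia had 0.524, 0.592 and 0.619 reads per Rela read in CD24- and 0.400, 0.407 and 0.407 in CD24+ libraries. The difference of the mean log2 ratios was -0.51, and an exact two-sided permutation test gave p = 0.1, the smallest possible. Per length, Nfkbia stood at 34.2 ± 2.53 and 27.2 ± 0.748 on the same per-length scale in CD24- and CD24+ cells, and Nfkbie at 0.861 ± 0.105 and 13.7 ± 2.34 (SD, n = 3 each). On that approximate scale Nfkbie was the lowest of the 10 transcripts in CD24- cells, overlapping Bcl3. In CD24+ cells it stood between Nfkb2 and Relb, overlapping Relb.

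Bcl3 and Nfkbiz encode nuclear members of the IkappaB family that act together with DNA-bound subunits. Bcl3, with 325 reads in all at chr7:20393838-20408099, had 2.21, 3.13 and 2.03 CPM in CD24- cells and 7.08, 4.86 and 6.39 CPM in CD24+ cells. The groups did not overlap, and the mean was 2.49-fold higher in CD24+ cells, with a log2 fold change of 1.27 (SE 0.25, edgeR adjusted p = 0.00196). Annotated antisense genes, Gm16174 and Gm16175, overlap Bcl3, and reads from either strand cannot be told apart in these unstranded libraries. With only reads that match the transcripts of a single gene, Bcl3 had 1.43 and was still called (edgeR adjusted p = 0.00139). Nfkbiz, at chr16:55811499-55838969, had 57.9, 49.8 and 65.5 CPM in CD24- cells and 45.3, 56.2 and 60.6 CPM in CD24+ cells. These groups overlap, with a log2 fold change of -0.08 and an interval of -0.33 to 0.17 (edgeR adjusted p = 0.637).

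Tnfaip3 encodes A20, a ubiquitin-editing enzyme that shuts off signalling from TNF and Toll-like receptors. Its reads lay at chr10:18720781-18735160 and gave 10.0, 10.1 and 12.0 CPM in CD24- cells and 15.7, 17.1 and 19.6 CPM in CD24+ cells. Every CD24+ library was above every CD24- library. The mean was 1.64-fold higher, with a log2 fold change of 0.73 (SE 0.14, edgeR adjusted p = 0.00188). The limma fit to median coverage described for Nfkb2, whose regularizer lowers the sizes, gave 0.10 and ended the call (adjusted p = 0.248). Across the 5 genes called higher, CD24+ replicate 2 was the lowest library of its group for Nfkbie, Relb, Bcl3 and Nfkb2, and CD24+ replicate 1 for Tnfaip3.

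Where the reads lay along and outside the transcripts was examined next, because a single covered stretch or intronic reads could carry a gene's count. Each longest coding transcript was divided into 4 parts of equal length. Nfkbie reads were higher in all CD24+ libraries in each of the 4, with log2 ratios of 3.89, 3.89, 3.78 and 4.44 from 5′ to 3′. Relb showed ratios of 1.61, 1.54, 1.77 and 1.46 and Tnfaip3 ratios of 0.56, 0.73, 0.74 and 0.99, again without overlap in any of the 4. Nfkbia ratios were -0.37, -0.31, -0.29 and -0.38, without overlap in 3 of 4. Nfkb2 (0.44, 0.37, 0.53 and 0.33) and Bcl3 (1.54, 1.23, 1.59 and 1.78) were without overlap in 3 of 4, with overlap in the last part of Nfkb2 and in the third part of Bcl3. Every ratio of these 6 genes had the sign of the whole gene. Those of Nfkbie rest on 17, 15, 17 and 12 reads over all CD24- libraries and those of Bcl3 on 12, 13, 14 and 14. The sizes of these ratios are therefore imprecise. No 47-nt stretch was shared between the transcripts of different members (0 found).

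**Figure D4:**
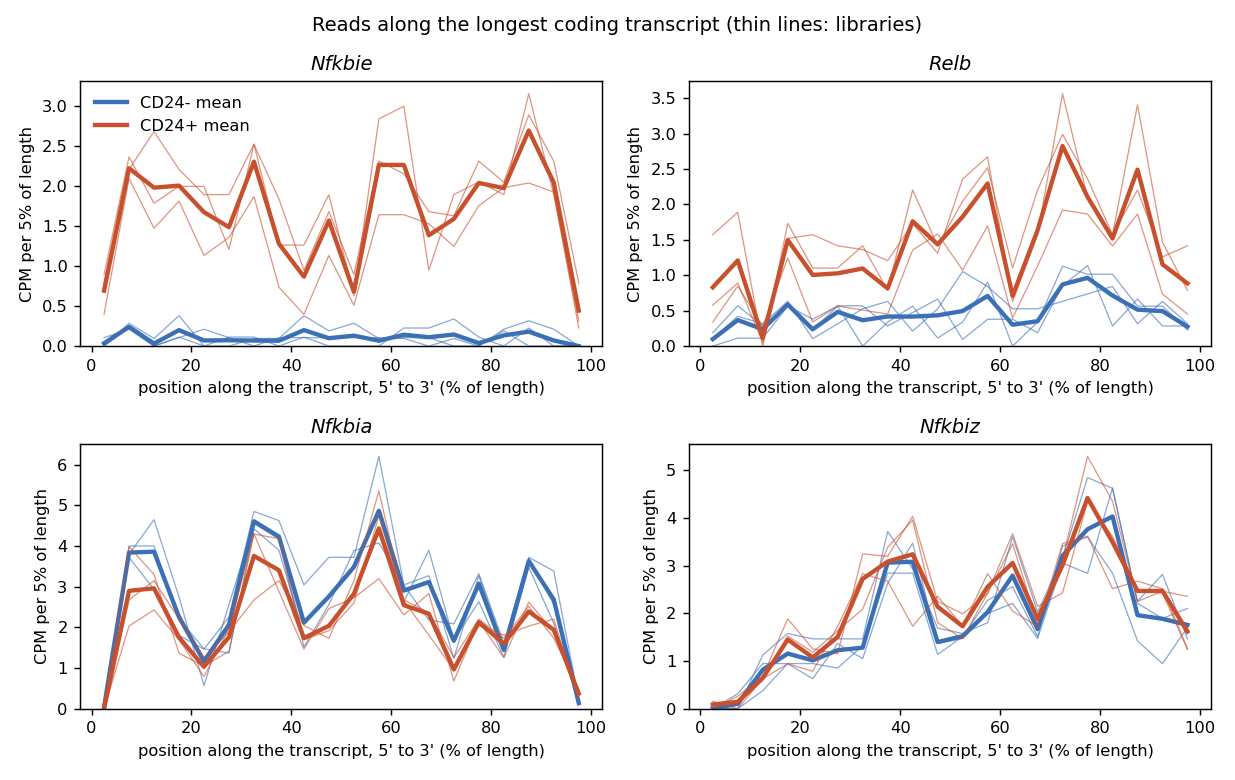
Reads along the longest coding transcript of Nfkbie, Relb, Nfkbia and Nfkbiz, as CPM in each 5% of its length (vertical axis, from 0) against the position from 5′ to 3′ in percent of length, with thin lines for libraries and thick lines for group means. The CD24+ mean of Nfkbie and Relb runs above the CD24- mean over nearly the whole length, while the lines of Nfkbiz cross.

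A part of the reads annotated to a gene matched no GENCODE transcript, as reads from introns would. Over all genes this part was 4.67%, 4.10% and 5.15% in CD24- and 2.45%, 3.84% and 3.60% in CD24+ libraries, lower in each CD24+ library. A refit with reads inside transcripts alone, added after seeing the data, kept every call among the 10 genes, with 5 higher and 1 lower. It gave 1.33 for Bcl3 (edgeR adjusted p = 0.00163) and 0.69 for Tnfaip3 (edgeR adjusted p = 0.00288). Among the 10 genes Nfkbiz had the largest share of reads outside transcripts, with 36.4%, 33.3% and 32.9% in CD24- and 15.3%, 23.9% and 21.5% in CD24+ libraries. These groups do not overlap (exact permutation p = 0.1, adjusted 0.25 over the 10 genes). The same held, with the same p-values and CD24+ lower, for Nfkb2 (2.39% to 3.81% in CD24- and 1.05% to 2.35% in CD24+). It also held for Rela (4.74% to 5.53% and 2.57% to 3.94%) and Bcl3 (16.7% to 24.2% and 8.89% to 15.1%). With reads inside transcripts alone the log2 fold change of Nfkbiz was 0.16 (edgeR adjusted p = 0.328) and with those outside alone -0.35 (adjusted p = 0.0993), so that the direction differed between the 2 kinds of read and neither passed the test.

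In Nfkbia, CD24- replicate 3 had 108 of 510 reads outside transcripts (21.2%, 95% Wilson interval 17.9% to 24.9%, counting error only), against 8.07% and 5.65% in the other CD24- libraries and 3.78% to 5.87% in CD24+ cells. Nfkbia was lower in CD24+ cells by the reads inside transcripts (-0.34, edgeR adjusted p = 0.0122) and by those outside (-1.32, adjusted p = 0.0166). For Relb the 2 values were 1.55 and 1.73, and for Nfkbie 3.89 and 3.89, all of them called. Nfkb2 gave 0.39 inside (adjusted p = 0.0178) and -0.14 outside (adjusted p = 0.779, from 113 reads in all).

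The genes whose pattern over the 6 libraries came closest to that of Nfkbie were Khdrbs3 (distance 0.191), Wtip (0.340) and Timp3 (0.340), out of 9327 genes searched. The distance is Euclidean, between log2 CPM values centred on each gene's mean. Khdrbs3 encodes an RNA-binding splicing regulator, and went from 11.3 ± 3.23 to 159 ± 25.7 CPM. Timp3 encodes an inhibitor of matrix metalloproteinases, and went from 4.25 ± 1.54 to 64.7 ± 12.6 CPM (SD, n = 3 each).

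The rest of the pathway was read from 4 lists. Of 20 kinases, ligase components and other inhibitors, all tested, 3 were called higher and 6 lower (45.0% in either direction, beside 46.1% of all genes), with a median log2 fold change of -0.03 beside 0.02 over all genes. Map3k14, the kinase of the non-canonical route, rose by 0.46 on the log2 scale (edgeR adjusted p = 0.00765), from 21.3, 21.1 and 21.1 CPM in CD24- to 26.1, 32.8 and 27.9 CPM in CD24+ cells. Nfkbil1 (0.35) and Csnk2a1, a subunit of casein kinase (0.27), were also called higher. Ikbke, a kinase related to the canonical ones, changed by -1.38 (adjusted p = 4.09e-05), from 41.5, 38.7 and 30.1 to 12.9, 12.7 and 16.2 CPM. Map3k8 (-0.85) and Ikbkb, the catalytic kinase of the canonical route (-0.44, adjusted p = 0.00420), were called lower too. Only 5 of these 20 genes were called without CD24+ replicate 3.

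Of 34 receptors and adaptors, 32 were tested, with 6 called higher, 6 lower (37.5% in either direction, beside 46.1% of all genes) and a median of 0.06. Tlr3, a receptor for double-stranded RNA, had the largest rise of those named by level, at 1.22, followed by Tnfrsf1b, a TNF receptor (0.63), and Traf3, an adaptor that promotes breakdown of the Map3k14 protein (0.63, edgeR adjusted p = 0.000236). Traf1 (-1.22), Ticam1, the adaptor of Tlr3 (-0.79), and Ripk1 (-0.41) were called lower. Tnfrsf11a, a receptor with few reads that is named after its values were seen, was called lower by more than these (-3.44, from 1.34 ± 0.180 to 0.0887 ± 0.108 CPM, SD, n = 3 each). Of 21 other brakes on the pathway, 19 were tested, 7 were higher and 3 lower (52.6% in either direction), with a median of 0.12. Among the brakes whose mean log2 CPM reached 3, Tank (1.04), Pdlim2 (0.73) and the ubiquitin ligase Itch (0.68) had the largest rises, and Sigirr (-0.84) and Tnip2 (-0.67) were called lower. Below that level, and named after their values were seen, Usp18 was called higher (1.45, from 2.27 ± 1.09 to 6.36 ± 1.30 CPM) and Nlrc3 lower (-2.82, from 13.5 ± 0.203 to 1.90 ± 0.126 CPM, SD, n = 3 each).

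Genes described as targets of NF-kappaB moved in both directions. With the members left out, 31 of 44 had enough reads to be tested, and their median log2 fold change was 0.03. Of these, 11 were called higher and 12 lower (74.2% in either direction, beside 46.1% of all genes). The list was chosen with earlier results of these data known, so this share cannot show that targets changed more often than other genes. Among those called higher were Vegfc, a growth factor of lymphatic vessels (3.10, from 3.32 ± 0.640 to 28.6 ± 7.81 CPM), the neutrophil chemokine Cxcl5 (1.73) and the sugar transporter Slc2a6 (1.65). The others called higher were Lcn2, Csf1, Ptgs2, Vcam1, Bcl2l1, Irf1, Ccnd1 and Tnfaip2. Myc fell by 1.83 on the log2 scale (from 898 ± 116 to 251 ± 51 CPM), Ier3 by 1.32 and Clu by 1.27 (SD, n = 3 each), and the others called lower were Cxcl16, Traf1, Ccl2, Cxcl1, Lif, Cd44, Junb, Cflar and Xiap. Inflammatory targets such as Tnf, Il1a, Il1b, Cxcl2, Ccl20 and Icam1 had too few reads to be tested. Traf1, Birc3 and Tnip1 stand in 2 of the lists.

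**Figure D5:**
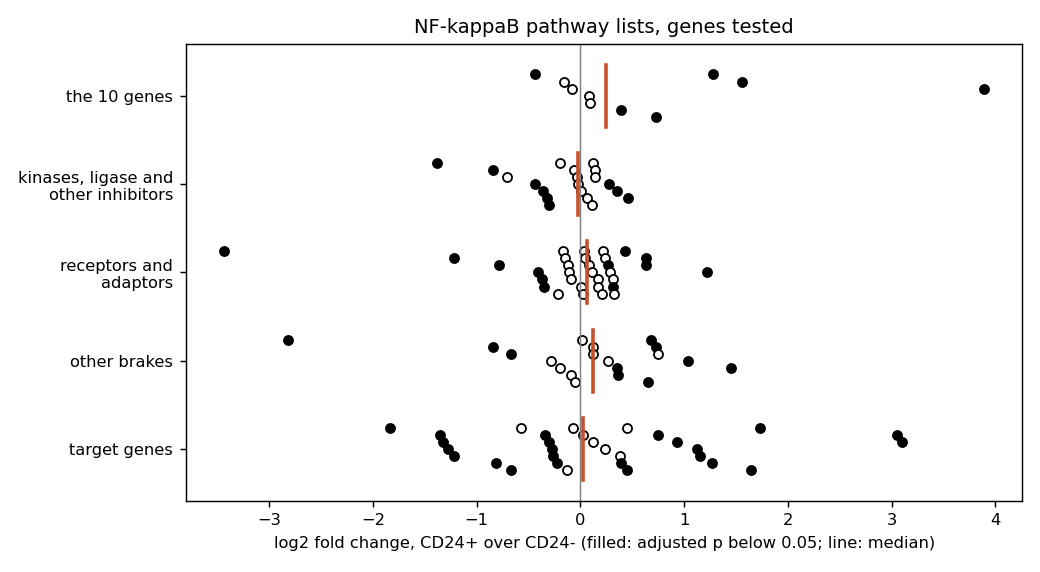
Each point is a tested gene, placed by its log2 fold change (CD24+ over CD24-, edgeR), for the 10 genes and the 4 pathway lists, filled where the adjusted p was below 0.05, with a vertical line at the median of each list. The medians of the pathway lists lie between -0.03 and 0.12, and Nfkbie at 3.89 is the point farthest to the right.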

How the data were processed

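Total RNA of 6 libraries was prepared with an unstranded TruSeq kit and sequenced as single-end reads. Trimming to 47 nt, collapsing of identical reads, mapping by exact match and annotation were done by the authors. Exact matching leaves out reads across exon junctions. The deposited counts are whole numbers per distinct sequence and library, not normalized or pooled. The submitters' processing notes name mm9, and the mapping tool is not given in the sources used here. The 10 genes and all lists were chosen with earlier results of these data known.

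Counts were summed per annotation. Gene totals and tests leave out the reads of repeats (5.93% to 7.83% of a library), of small and other noncoding RNA (1.22% to 3.94%), and those without annotation (16.9% to 20.2%). Genes passing filterByExpr were tested with edgeR 4.0.16 (TMM, quasi-likelihood F test, Benjamini-Hochberg) in R 4.3.3. The same steps were run on simulated counts in which few genes changed, all by the same large size. Since this setting is unlike the data, that run checked the code and not the calls made here. Reads were matched exactly to GENCODE M21 transcripts (GRCm38) for location and length, and no coordinates were converted. Other genes are the 3 largest rises and 3 largest falls per list among called genes whose mean log2 CPM reached 3, and the 3 genes most like the member with the largest change. For targets, all other called genes are listed by symbol. The alternatives included DESeq2 1.42.0 and limma 3.58.1. Libraries of a group differed by more than sampling noise (chi-square over degrees of freedom 1.75 for CD24- replicates 1 and 2, and 9.69 to 15.9 for the other pairs).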

Additional observations from a re-analysis of the deposited data

How the results depend on the processing

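Across 18 results and 18 alternative settings, 286 of 310 values held, that is, a call did not change or turn and a count moved by at most 1.5 times. A result without a value under a setting is left out of these counts, and an uncalled gene held by staying uncalled. All settings reuse the same 6 libraries, so they are not independent checks. The ratio of Nfkbia to Rela and the subunit shares, 54 further values, are left out, since their exact tests cannot go below p = 0.1 and so can neither gain nor lose a call. Among them, the difference in the share of Rel went from -0.585 (exact p = 0.1) to -0.261 percentage points (exact p = 0.7) with distinct sequences counted once. That of Nfkb2 went from 1.67 (exact p = 0.2) to 0.843 percentage points (exact p = 0.4). Without CD24+ replicate 1 the 2 differences were -0.258 for Rel and 1.07 for Nfkb2. Of the log2 fold changes of the 10 genes, 163 of 170 held, where a value of an uncalled gene may change sign around 0. A minimum of 1 CPM in 3 libraries kept the same 11125 genes as the filter used, so it tested nothing and is left out of these counts. Nfkb2 was the weakest call: without each library in turn it ranged from 0.32 to 0.49, and the adjusted p (edgeR) passed 0.05 without CD24- replicate 2, CD24+ replicate 1 or CD24+ replicate 3. Counting distinct sequences once gave 0.31 for Nfkb2 (adjusted p = 0.0525), 1549 genes called lower and 5 called kinases and other inhibitors. That list had 5 to 10 calls without each library in turn, 5 of them without CD24+ replicate 3. Leaving libraries out gave 3.73 to 4.03 for Nfkbie, 1.42 to 1.75 for Relb, 1.15 to 1.49 for Bcl3, 0.62 to 0.82 for Tnfaip3 and -0.51 to -0.29 for Nfkbia, all still called. An estimate after the study's steps (median coverage, quantile normalization, a regularizer of 10), tested here with limma and a median coverage of at least 10 in 3 libraries, left values for Nfkb1, Rela and Nfkbia only, of which 0 were called higher and Nfkbia (-0.24, adjusted p = 0.00954) was called lower. It called 735 genes higher and 828 lower, with 1 kinase or other inhibitor, 3 receptors and adaptors, 4 other brakes and 14 targets among them. A minimum of 1, chosen after seeing the data, called 1489 genes higher and 1610 lower, 2 members higher (Nfkbie at 0.84 and Relb at 0.41, sizes that the regularizer lowers) and 6 receptors and adaptors. With it Nfkb2 (0.17, adjusted p = 0.0506) and Tnfaip3 (0.10, adjusted p = 0.248) were not called, and Bcl3 had no value. Reads outside GENCODE transcripts, also added after seeing the data, gave 936 genes called higher, 907 lower, 2 members called higher and -0.14 for Nfkb2. They gave no value for Tnfaip3 and Bcl3. Adding all reads that match the transcripts of the 10 genes, repeats included, was likewise added later, changed no call among them and gave 0.75 for Relb. The cause of the other differences was not tested. Same-numbered libraries did not deviate together (correlations 0.0119, -0.334 and -0.395 over 9335 genes), so the numbers gave no sign of a pairing. Between differently numbered libraries the correlations went from -0.263 (CD24- replicate 1 with CD24+ replicate 2) to 0.364 (CD24- replicate 3 with CD24+ replicate 2). A pairing or batch under another numbering was not tested. With the replicate number as a block, 2376 genes were called higher and 2117 lower, Nfkb2 gave 0.39, and no call among the 10 genes changed. Reads were few for Bcl3 (325 in all), Rel (512) and Nfkbie in CD24- cells (62), which limits their precision.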
